A study of Mus musculus with 119 samples.

Results

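Gene expression was compared between the prefrontal cortex (PFC) and the amygdala (Amy) of vehicle-treated mice. The libraries were chosen by their labels as all those of vehicle-treated mice from either region. This gave 24 of the 119 libraries of the series, 12 from the PFC and 12 from the Amy, with 6 from females and 6 from males in each region. The series was made to ask how exposure to delta-9-tetrahydrocannabinol (THC) in adolescence alters gene expression, and it also holds the dorsal medial striatum (DMS), nucleus accumbens (NAc) and ventral tegmental area (VTA), with 59 vehicle libraries in all. The question addressed here is how the PFC and the Amy differ without THC.

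All 24 libraries came from mice with no engineered allele. The labels give the strain as C57BL/6J and an age of 11 weeks, whereas the study's methods name C57BL/6NCrl. Vehicle, a mixture of ethanol, tween and saline, had been injected into the peritoneum once a day from postnatal day 28 to 48, 21 injections in all, so every animal of both regions carries the same handling. By the study's methods, the mice also went through tests of anxiety, object memory and social behavior before the brains were collected. Each library holds RNA from a punch of 1 region of 1 mouse, and a punch can take in tissue next to its target. The labels do not say which PFC and which Amy library came from the same mouse, so the regions were compared as separate groups. In bulk tissue such as this, fewer cells of a type and less RNA per cell cannot be told apart.

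The PFC is layered neocortex, built of glutamatergic projection neurons with a smaller number of GABAergic interneurons and glia. The amygdala is a set of nuclei of mixed origin. Its basolateral and cortical nuclei hold glutamatergic neurons that arise from the pallium as those of the cortex do, its central nucleus holds mainly GABAergic neurons akin to those of the striatum, and its medial nucleus is rich in neuropeptides and sex steroid receptors and shares cell types with the hypothalamus.

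The authors placed the regions in 2 tables of expected counts, the first with the PFC and DMS and the second with the NAc, Amy and VTA. Each region is in 1 table only, so region and table cannot be told apart in a fit, and 2 descriptions of the table are given beside the results below. The first is the difference between DMS and NAc, which are both striatal and lie in different tables. The second is the count of genes that separate the tables as wholes. Levels are given as CPM, the counts scaled to a common library size with TMM factors, and a fold change is the PFC over the Amy, so that a positive log2 fold change means a higher level in the PFC.

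Depth was even in the PFC, at 20299010 to 25470245 expected counts per library, and uneven in the Amy, at 9663291 to 56648771. The labelled sex matched the levels of Xist and of the Y-linked genes in 24 of 24 libraries, and no pair of libraries held identical values. Among them, 3 libraries stood apart. In PFC library FTL_264 the summed level of the medium spiny neuron genes was 1106 CPM against 583 to 633 CPM in the other female PFC libraries, and in Amy library FTL_346 it was 2830 CPM against 1400 to 1750 CPM in the other male Amy libraries. In Amy library FTL_338, 3.06% of the genes with a mean log2 CPM over 2 were more than 2-fold from the mean of the other Amy libraries, against 0.0411 to 0.65% in the other 11. Counts with these 3 libraries left out are given where results rest on them.

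Of 17011 genes tested, 2921 (17.2%) were higher in the PFC and 3544 (20.8%) were higher in the Amy, with an FDR under 0.05 and a log2 fold change of 0.4 or more in either direction in edgeR's quasi-likelihood test with sex as a covariate. With library size alone in place of TMM, the median of all genes moved by -0.156 on the log2 scale and the counts became 2011 and 5087, so that 28.3% of the called genes were higher in the PFC in place of 45.2%. Without FTL_264, FTL_338 and FTL_346 the counts were 2864 and 3495. At a log2 fold change of at least 1, the counts were 916 (5.38%) and 1255 (7.38%). Every PFC library lay above every Amy library for 2564 genes (15.1%), and every Amy library above every PFC library for 1949 genes (11.5%). The shares of all genes in this paragraph are the background for the counts given for gene lists below.

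The marker genes Tbr1 and Slc17a7 were both higher in the PFC. Tbr1, a T-box transcription factor of pallial projection neurons, was measured at 169 to 227 CPM (median 205) in the PFC libraries and 15.8 to 33.3 CPM (median 25.7) in the Amy libraries. Slc17a7, which encodes the vesicular glutamate transporter VGLUT1, was measured at 1726 to 1998 CPM (median 1853) in the PFC libraries and 276.5 to 671 CPM (median 519.6) in the Amy libraries. For both genes, all 12 PFC libraries were higher than all 12 Amy libraries. The log2 fold change was 3.01 ± 0.11 (SE, FDR = 2.23e-18) for Tbr1 and 1.86 ± 0.10 (SE, FDR = 3.49e-15) for Slc17a7. The Amy libraries were not devoid of either transcript, and in none of them was Slc17a7 under 276.5 CPM.

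**Figure D1:**
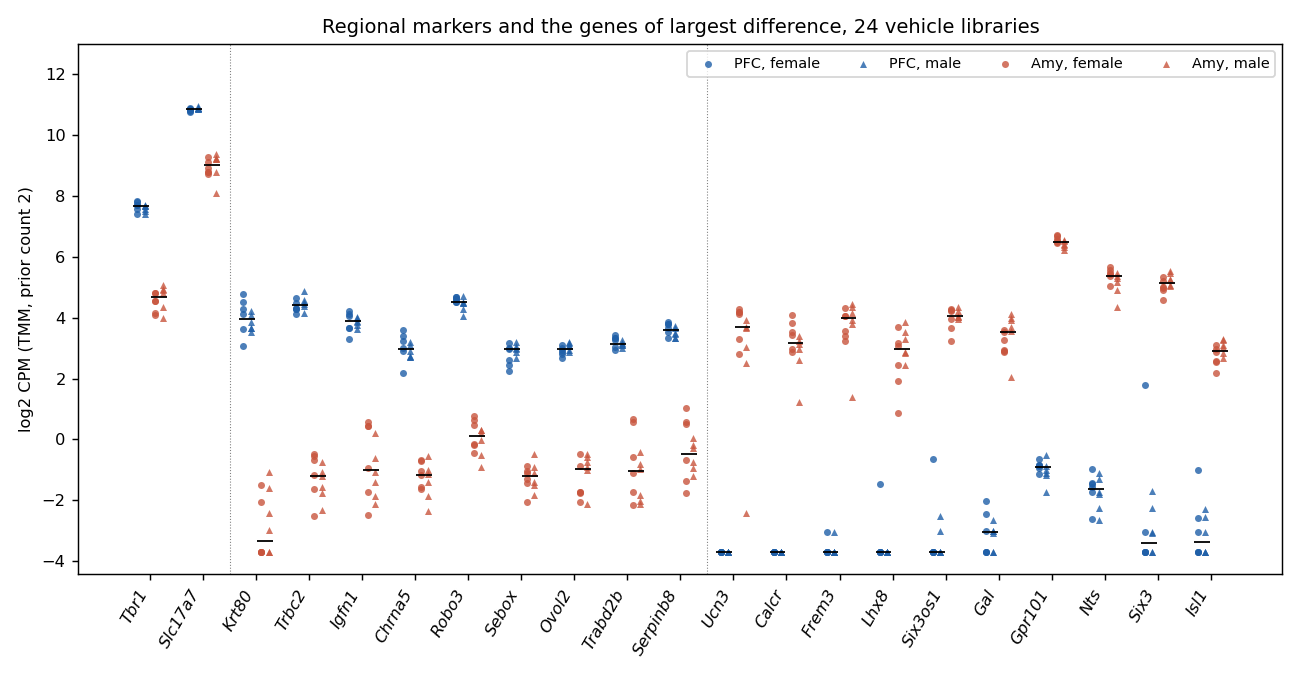
Levels of marker genes in each of the 24 libraries, as log2 CPM, with 1 point for each library (circles for females, triangles for males), a bar at the median of the 12 libraries of a region, and the PFC (blue) beside the Amy (red). The PFC and Amy points of Tbr1, Slc17a7 and the other genes shown do not overlap, and FTL_264 is the high PFC point of Six3.

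Of the 13 genes listed as markers of pallial projection neurons, 12 were higher in the PFC, against 17.2% of all genes tested, with a median log2 fold change of 2.03 against -0.03 over all genes. Neurod6, a basic helix-loop-helix factor of pallial neurons, ranged from 111 to 153 CPM (median 131) in the PFC libraries and 14.4 to 32.7 CPM (median 23.2) in the Amy libraries, a log2 fold change of 2.53 ± 0.12 (SE, FDR = 2.00e-15). Its relative Neurod2 had medians of 122 CPM in the PFC and 25.8 in the Amy, a log2 fold change of 2.26 ± 0.11 (SE, FDR = 1.03e-15). The one member that did not pass was Bhlhe22, a related factor, at 20.1 to 50.2 CPM (median 34.02) in the PFC and 12.9 to 58.02 CPM (median 26.7) in the Amy, where the regions overlapped (log2 fold change 0.23 ± 0.23 SE, FDR = 0.385). The median difference between DMS and NAc over the same 13 genes was 0.01, and it was -1.56 without DMS library FTL_285, which stood apart from the other DMS libraries in pallial genes.

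The promoters of Tbr1 and Neurod2 are shown because both genes encode factors that define pallial neurons. The sequences are from RefSeq on GRCm38.p6, read 5′ to 3′ on the strand of the gene. Capitals mark the letters TAATTA, the core that many homeodomain proteins bind, in Tbr1 (chr2:61804416-61804444, + strand), where it lies at -33 and -18 from the RefSeq start, and the E-box letters CAGATG in Neurod2 at -118 (chr11:98329656-98329895, - strand).
Tbr1: atccTAATTAatgtctatcTAATTAaatt
Neurod2: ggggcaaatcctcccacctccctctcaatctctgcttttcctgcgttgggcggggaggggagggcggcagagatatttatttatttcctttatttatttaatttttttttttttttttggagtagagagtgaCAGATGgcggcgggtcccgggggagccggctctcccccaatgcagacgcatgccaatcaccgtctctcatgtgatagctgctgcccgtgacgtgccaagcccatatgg
In the 250 bases before the start, TAATTA, which reads the same on both strands, was in 4.25% of the 824 promoters of genes higher in the PFC at a log2 fold change of at least 1, in 3.61% of the 1080 promoters of genes so much higher in the Amy, in 2.67% of the 15707 promoters of all genes tested and in 4.84% of all 32851 promoters. CAGATG or its complement CATCTG was in 12.5%, 15.6%, 10.6% and 14.4%, respectively, and these shares were not tested. These matches describe letters and do not show that a factor binds.

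The other genes with the largest differences toward the PFC were of varied function. Krt80, which encodes a keratin, was at 8.37 to 27.4 CPM (median 15.7) in the PFC libraries and 0 to 0.398 CPM (median 0.0253) in the Amy libraries, a log2 fold change of 7.21 ± 0.33 (SE, FDR = 4.12e-16). Trbc2, a constant region of the T cell receptor, was at 17.4 to 29.7 CPM (median 21.4) in the PFC libraries and 0.0977 to 0.637 CPM (median 0.361) in the Amy libraries, a log2 fold change of 6.02 ± 0.17 (SE, FDR = 3.09e-21). No Amy library reached the lowest PFC library for either gene. Trbc2 has a close copy in the genome with which it may share reads, so its level is uncertain.

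Chrna5, which encodes the alpha5 subunit of the nicotinic acetylcholine receptor, was at 4.47 to 12.1 CPM (median 7.74) in the PFC libraries and 0.119 to 0.603 CPM (median 0.372) in the Amy libraries, a log2 fold change of 4.49 ± 0.19 (SE, FDR = 9.05e-18). Robo3, an axon guidance receptor, was at 16.7 to 25.98 CPM (median 22.99) in the PFC libraries and 0.456 to 1.61 CPM (median 0.999) in the Amy libraries, a log2 fold change of 4.48 ± 0.12 (SE, FDR = 7.54e-22). Both were near the bottom of the measured range in the Amy. The other genes named by the rule were Igfn1, Sebox, Ovol2, Trabd2b and Serpinb8, which differed by 3.91 to 4.66 on the log2 scale and stayed under 2 CPM in each Amy library.

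The 10 genes named for the largest differences toward the Amy were Ucn3, Gal and Nts, which encode peptides, the receptor genes Calcr and Gpr101, the transcription factor genes Isl1, Lhx8 and Six3, the antisense transcript Six3os1 and the matrix protein gene Frem3. Ucn3, which encodes the peptide urocortin 3, a ligand of the corticotropin-releasing hormone receptor 2, had 0 counts in all 12 PFC libraries and was at 0.110 to 19.3 CPM (median 12.8) in the Amy. Calcr, the calcitonin receptor, also had 0 counts in all 12 PFC libraries and was at 2.27 to 16.8 CPM (median 9.01) in the Amy. With the summed PFC count set at the floor of 3 counts over the group, Ucn3 was at least 969.6-fold higher in the Amy and Calcr at least 771.9-fold higher (FDR = 7.11e-06 and 6.64e-10, respectively). The lowest Amy library was FTL_346 for both genes, and for Ucn3 it was the only Amy library under 1 CPM.

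Frem3, an extracellular matrix protein, had 2 counts in all over the PFC libraries and was at 2.58 to 21.6 CPM (median 15.8) in the Amy, a ratio of 1770 with a 95% counting interval of 489.7 to 14620. Gal, the precursor of the peptide galanin, did not exceed 0.168 CPM in the PFC and was at 4.07 to 17.2 CPM (median 11.6) in the Amy, a log2 fold change of -7.78 ± 0.34 (SE, FDR = 7.17e-17). Nts, the precursor of neurotensin, was at 0.0817 to 0.428 CPM (median 0.246) in the PFC libraries and 20.5 to 50.3 CPM (median 41.5) in the Amy libraries, a log2 fold change of -7.31 ± 0.17 (SE, FDR = 1.60e-22). None of these genes overlapped between the regions.

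Gpr101, an orphan receptor abundant in the hypothalamus and amygdala, had the most even of these differences. It was at 0.227 to 0.628 CPM (median 0.458) in the PFC libraries and 75.4 to 105 CPM (median 90.7) in the Amy libraries. Its log2 fold change was -7.66 ± 0.07 (SE, FDR = 5.17e-32), with a standard error smaller than that of the other 9 genes named by the same rule. Among the transcription factors, Isl1, Lhx8 and Six3 mark GABAergic and cholinergic neurons of the subpallium. Six3 was at 0 to 3.40 CPM (median 0.0211) in the PFC libraries and 23.7 to 45.99 CPM (median 35.3) in the Amy libraries, a log2 fold change of -6.80 ± 0.43 (SE, FDR = 1.33e-12), and its highest PFC value came from FTL_264, without which its log2 fold change was -9.5. Six3os1, a transcript on the opposite strand whose annotated span overlaps that of Six3 on chromosome 17, was at 0 to 0.567 CPM (median 0) in the PFC libraries and 9.39 to 20.3 CPM (median 16.5) in the Amy libraries. The libraries were stranded, but the sources used here do not say whether the counting used strand, so the reads of this pair may not be fully separated.

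**Figure D2:**
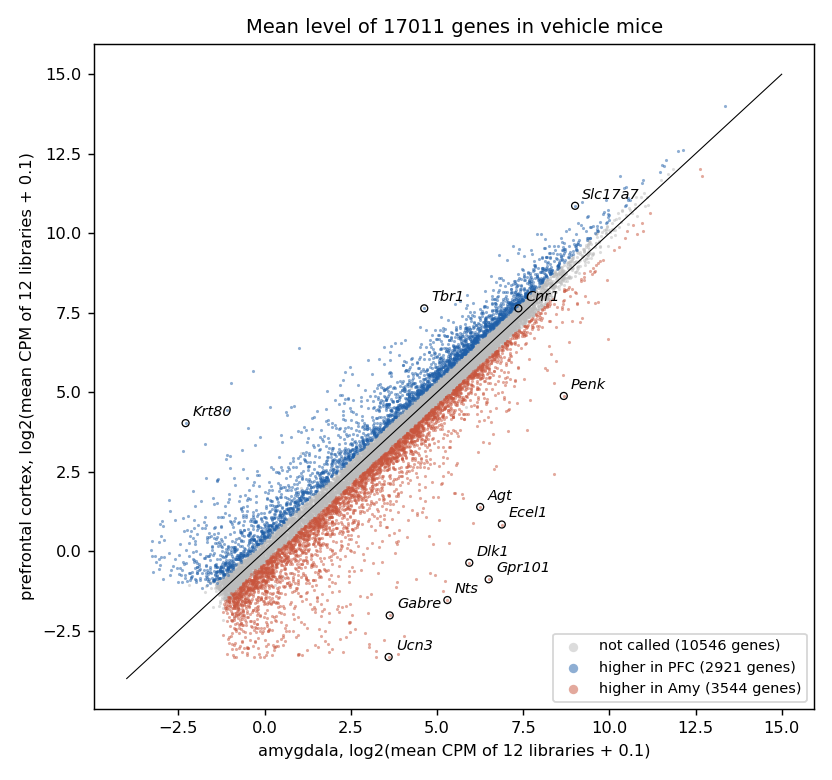
Mean CPM of each gene tested over 12 libraries, on a log2 scale with 0.1 CPM added, in the Amy (horizontal axis) and in the PFC (vertical axis), with 1 point for each gene and the genes called higher in the PFC or in the Amy in separate colors. Of 17011 genes, 2921 were called higher in the PFC and 3544 higher in the Amy, and Gpr101 and Krt80 lie far from the diagonal on opposite sides.

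The promoter of Ucn3, the gene with 0 counts in every PFC library, is shown from RefSeq on GRCm38.p6 (chr13:3945360-3945599, - strand), with the E-box letters CAGATG at -87 in capitals.
Ucn3: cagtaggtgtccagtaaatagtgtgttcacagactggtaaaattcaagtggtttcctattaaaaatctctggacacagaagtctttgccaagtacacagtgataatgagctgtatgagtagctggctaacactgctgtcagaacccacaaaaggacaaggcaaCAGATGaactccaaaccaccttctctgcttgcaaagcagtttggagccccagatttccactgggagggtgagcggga
Of the listed neuropeptide precursors, 7 of 22 promoters (31.8%) held CAGATG or CATCTG, against 10.6% of the 15707 promoters of all genes tested. No test was made of this share, and these were promoters of 20 of the 26 listed genes.

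Markers of cortical layers did not all lie on the side of the cortex. Of 12 genes listed for upper layers, 6 were higher in the PFC and 4 higher in the Amy, with a median log2 fold change of 0.42. Inhba, a subunit of activin, was at 9.11 to 20.8 CPM (median 13.5) in the PFC libraries and 1.85 to 5.37 CPM (median 2.67) in the Amy libraries, a log2 fold change of 2.20 ± 0.16 (SE, FDR = 2.37e-12). Rorb, a nuclear receptor of layer 4 neurons, was at 30.2 to 55.2 CPM (median 39.4) in the PFC libraries and 13.2 to 18.1 CPM (median 14.9) in the Amy libraries, a log2 fold change of 1.44 ± 0.07 (SE, FDR = 8.18e-16). In both cases the regions did not overlap. Inhba was also higher in DMS than in NAc, by 2.16, and the difference of the 2 differences (PFC minus Amy, less DMS minus NAc) was 0.04 and not called.

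Pou3f2, a POU-domain factor of upper layer neurons, differed by 1.60 ± 0.09 (SE, FDR = 3.68e-14) on the log2 scale. The 4 members higher in the Amy were Otof, Mdga1, Calb1 and Cux1. Otof, which encodes otoferlin, a calcium sensor of vesicle release, was at 5.58 to 20.02 CPM (median 13.9) in the PFC libraries and 71.3 to 120.2 CPM (median 105) in the Amy libraries, a log2 fold change of -2.95 ± 0.16 (SE, FDR = 1.90e-14). Mdga1, a cell adhesion protein, differed by -2.02 ± 0.10 (SE, FDR = 2.20e-15), and the calcium-binding protein gene Calb1 by -0.86 ± 0.08 (SE, FDR = 6.83e-10), all Amy libraries being higher. Cux1, a homeodomain factor, overlapped between the regions (log2 fold change -0.52 ± 0.06 SE, FDR = 6.35e-09).

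Of 16 deep layer genes tested, 10 were higher in the PFC and 2 higher in the Amy, with a median log2 fold change of 0.93. Fezf2, a zinc finger factor that specifies neurons projecting below the cortex, was at 53.9 to 75.6 CPM (median 64.6) in the PFC libraries and 7.80 to 22.3 CPM (median 16.7) in the Amy libraries, a log2 fold change of 1.96 ± 0.10 (SE, FDR = 1.65e-15). Ccn2, a secreted matrix protein of layer 6b, was at 8.47 to 37.6 CPM (median 25.4) in the PFC libraries and 0.953 to 2.49 CPM (median 1.68) in the Amy libraries, a log2 fold change of 3.81 ± 0.24 (SE, FDR = 3.94e-13). Ccn2 varied more among PFC libraries than Fezf2 did, and for neither gene did the regions overlap.

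Cplx3, a complexin of layer 6b, was higher in the PFC by 2.52 ± 0.19 (SE, FDR = 8.70e-12) on the log2 scale, and the adaptor gene Sla by 2.94 ± 0.10 (SE, FDR = 7.26e-20). The members higher in the Amy were Tshz2, a zinc finger factor (log2 fold change -1.0 ± 0.06 SE, FDR = 1.33e-13), and Nxph4, a neurexin ligand (-1.37 ± 0.23 SE, FDR = 1.11e-05). Bcl11b, a factor of both deep layer neurons and medium spiny neurons, had medians of 107 CPM in the PFC and 115 in the Amy, with overlapping values and a log2 fold change of -0.06 ± 0.09 (SE, FDR = 0.574).

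The Amy libraries held transcripts of several amygdalar nuclei and of their neighbors. Of 10 genes listed for basolateral and cortical amygdala, 5 were higher in the Amy, 1 was higher in the PFC and 4 did not pass, with a median log2 fold change of -0.48. Between DMS and NAc the list median was -0.87 (-1.34 without FTL_285), larger in size than that between PFC and Amy. The median difference of the 2 differences was -0.56, with 2 genes higher in the PFC and 5 in the Amy. Nr2f2, a nuclear receptor also called COUP-TFII, was at 5.24 to 6.76 CPM (median 5.70) in the PFC libraries and 74.3 to 128 CPM (median 101) in the Amy libraries, a log2 fold change of -4.09 ± 0.08 (SE, FDR = 1.01e-23). Lypd1, a modulator of nicotinic receptors, was at 47.4 to 77.5 CPM (median 64.5) in the PFC libraries and 263.8 to 504 CPM (median 349.7) in the Amy libraries, a log2 fold change of -2.47 ± 0.11 (SE, FDR = 1.53e-16). Both genes were well separated between the regions.

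The LIM homeodomain gene Lhx9 was at 0.136 to 0.656 CPM (median 0.283) in the PFC libraries and 0.374 to 8.77 CPM (median 3.58) in the Amy libraries, with overlap and a log2 fold change of -3.57 ± 0.40 (SE, FDR = 1.93e-08). The member on the other side was Rspo2, a secreted activator of Wnt signaling, at 32.1 to 51.7 CPM (median 41.3) in the PFC libraries and 7.80 to 26.01 CPM (median 16.4) in the Amy libraries, a log2 fold change of 1.36 ± 0.16 (SE, FDR = 3.49e-08). Rspo2 was higher in every PFC library than in any Amy library, although it is listed as a marker of the basolateral amygdala.

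Of 15 central amygdala genes, 14 were higher in the Amy, against 20.8% of all genes tested, and the median log2 fold change was -1.76. Prkcd, the protein kinase C delta of a class of central amygdala neurons, was at 3.59 to 4.90 CPM (median 4.32) in the PFC libraries and 15.3 to 52.5 CPM (median 36.1) in the Amy libraries, a log2 fold change of -3.04 ± 0.16 (SE, FDR = 1.26e-14). Prkcd is also abundant in the thalamus, and it stands on the list of thalamic genes too. Penk, the precursor of enkephalins, was at 17.8 to 80.1 CPM (median 24.5) in the PFC libraries and 226 to 673 CPM (median 389) in the Amy libraries, a log2 fold change of -3.81 ± 0.22 (SE, FDR = 3.13e-13). Both genes were higher in each Amy library than in any PFC library.

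Tac2, the precursor of neurokinin B, was higher in the Amy (log2 fold change -3.33 ± 0.14 SE, FDR = 5.72e-17), as was Crh, corticotropin-releasing hormone (-1.35 ± 0.10 SE, FDR = 1.07e-12). For Crh, the Amy libraries held 5.81 to 11.6 CPM (median 9.06) and the PFC libraries 2.55 to 4.49 CPM (median 3.56). The member higher in the PFC was Npy1r, a receptor of neuropeptide Y, at 22.2 to 31.4 CPM (median 26.4) in the PFC libraries and 11.3 to 16.7 CPM (median 14.3) in the Amy libraries, a log2 fold change of 0.92 ± 0.06 (SE, FDR = 6.19e-13). The summed level of the list was 344.3 to 655 CPM in the PFC and 882 to 1932 CPM in the Amy, the highest PFC value being that of FTL_264.

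Striatal genes were mostly higher in the Amy as well. Of 15 genes of striatal medium spiny neurons, 14 were higher in the Amy, against 20.8% of all genes tested, and 1 in the PFC. The median log2 fold change was -1.70. Every Amy library was above every PFC library for 4 of the 15, against 11.5% of all genes tested. Adora2a, an adenosine receptor of striatal neurons that project to the globus pallidus, was at 1.36 to 20.5 CPM (median 1.87) in the PFC libraries and 10.7 to 134 CPM (median 40.1) in the Amy libraries. Drd2, the dopamine D2 receptor of the same neurons, was at 0.500 to 13.1 CPM (median 1.16) in the PFC libraries and 7.35 to 48.6 CPM (median 21.1) in the Amy libraries. For both genes FTL_264 was the highest PFC library, and for Adora2a FTL_346 was the highest Amy library.

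The log2 fold change was -3.67 ± 0.50 (SE, FDR = 8.89e-07) for Adora2a and -3.31 ± 0.46 (SE, FDR = 9.27e-07) for Drd2, and without FTL_264 it was -4.54 for Adora2a and -4.157 for Drd2. Ppp1r1b, which encodes DARPP-32, overlapped almost completely, at 70.7 to 197 CPM (median 104) in the PFC libraries and 71.2 to 453 CPM (median 167) in the Amy libraries (log2 fold change -0.70 ± 0.21 SE, FDR = 0.00565). Foxp1, a forkhead factor of both medium spiny neurons and cortical neurons, was the member higher in the PFC, at 88.6 to 114 CPM (median 102) in the PFC libraries and 19.9 to 69.5 CPM (median 30.4) in the Amy libraries, a log2 fold change of 1.63 ± 0.13 (SE, FDR = 5.13e-11). The list is higher in DMS than in NAc, by a median of 1.09, which is the direction opposite to that between PFC and Amy. How far the tissue next to each punch took part in these values was not tested.

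Genes of the hypothalamus and medial amygdala gave the largest median difference of the neuronal lists. Of 25 listed genes, 20 passed the filter on low counts, and of these 19 were higher in the Amy and 1 in the PFC, with a median log2 fold change of -5.29. A gene that is near 0 in the PFC could pass the filter only through the Amy, so these counts are a description, and Ucn3 set at its bound leaves the median where it is. Avp, the precursor of vasopressin, was at 0 to 0.0473 CPM (median 0) in the PFC libraries and 1.65 to 13.2 CPM (median 4.06) in the Amy libraries. Sim1, a factor of hypothalamic and medial amygdala neurons, was at 0 to 0.0422 CPM (median 0) in the PFC libraries and 0.0440 to 7.39 CPM (median 1.45) in the Amy libraries. Sim1 was close to 0 in some Amy libraries and clearly present in others.

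Cyp19a1, the aromatase that makes estradiol from testosterone, was at 0 to 0.182 CPM (median 0.0646) in the PFC libraries and 0.396 to 3.78 CPM (median 1.55) in the Amy libraries, a log2 fold change of -4.28 ± 0.46 (SE, FDR = 4.64e-09). Esr1, the estrogen receptor alpha, was at 2.86 to 4.86 CPM (median 3.72) in the PFC libraries and 5.96 to 26.4 CPM (median 11.6) in the Amy libraries, a log2 fold change of -1.82 ± 0.18 (SE, FDR = 1.94e-09). The exception was Pgr, the progesterone receptor, which was higher in the PFC at 32.04 to 42.3 CPM (median 37.4) in the PFC libraries and 11.5 to 32.2 CPM (median 24.5) in the Amy libraries, a log2 fold change of 0.62 ± 0.10 (SE, FDR = 2.56e-06). Ecel1, a peptidase of peptidergic neurons, had medians of 1.57 CPM in the PFC and 116 in the Amy, with no overlap. Otp, a homeodomain factor of the hypothalamus and medial amygdala, and Oxt, the precursor of oxytocin, were also called higher in the Amy, and Oxt had a median there of 0.575 CPM with values down to 0.

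Of 17 transcription factors of the subpallium, 15 were higher in the Amy, against 20.8% of all genes tested. None was called higher in the PFC, and the median log2 fold change was -2.57. All 17 listed genes were tested, though some near 0 in the PFC could pass the filter on low counts only through the Amy. Every one of the 17 had an unadjusted p under 0.05, as did 12245 of the 17011 genes tested. Of 8 thalamic genes, 7 were higher in the Amy, against the same 20.8%. Their median was -1.55, and the median between DMS and NAc was -1.47, which is almost as large.

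**Figure D3:**
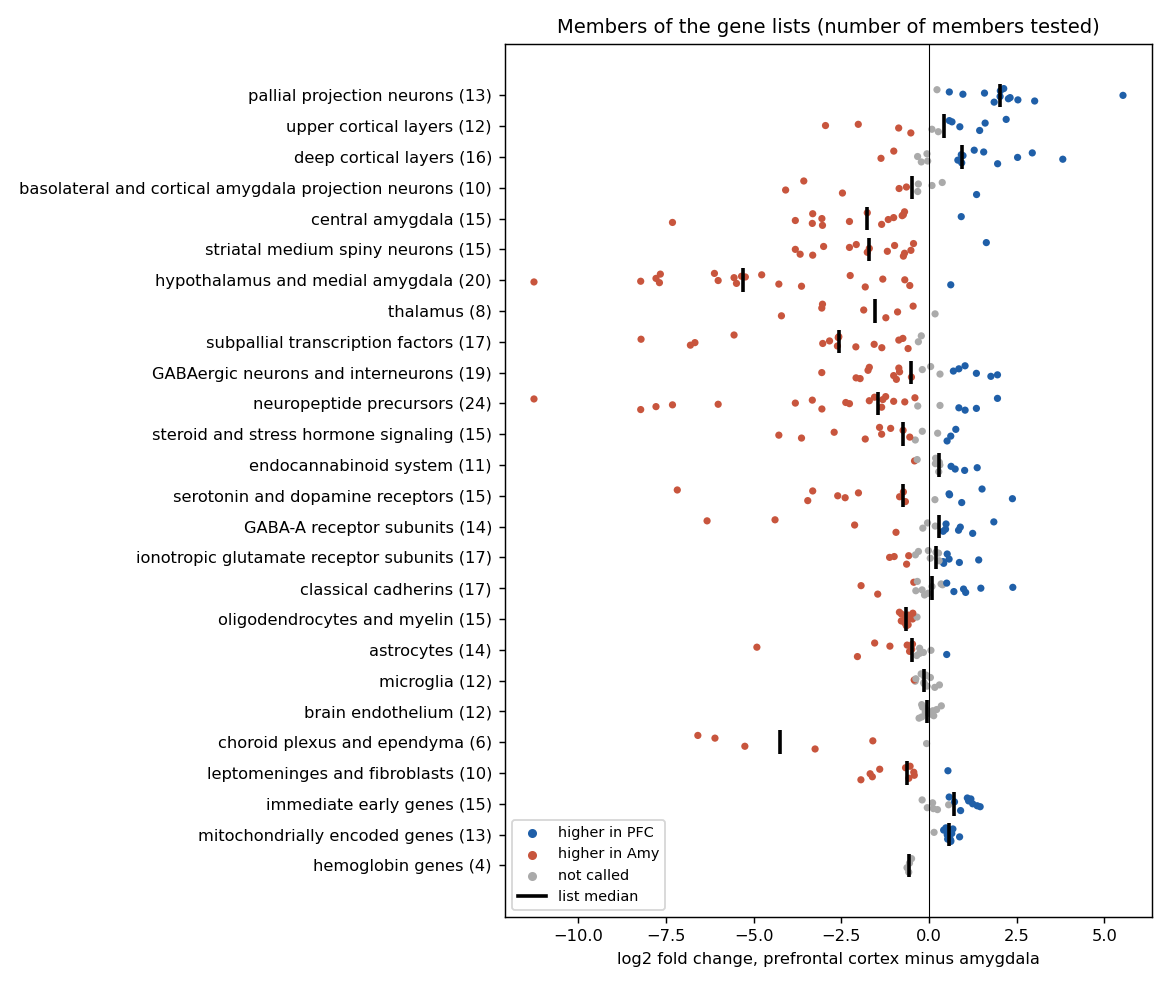
Log2 fold change (PFC over Amy) of each tested member of the gene lists, with 1 point for each gene, blue or red where it was called higher in the PFC or the Amy and gray where it was not called, 1 row for each list and a bar at the list median. The pallial list lies to the right with a median of 2.03, and the hypothalamic and medial amygdala list lies far to the left with a median of -5.29.

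Genes that all GABAergic neurons use were higher in the Amy, while genes of some interneuron classes were higher in the PFC. Of 19 genes listed, 10 were higher in the Amy and 6 in the PFC, with a median log2 fold change of -0.50. Slc32a1, the vesicular GABA transporter, was at 68.03 to 81.6 CPM (median 73.8) in the PFC libraries and 253 to 363.6 CPM (median 322.3) in the Amy libraries, a log2 fold change of -2.08 ± 0.05 (SE, FDR = 7.93e-23). Gad2, a GABA-synthesizing enzyme, was at 128 to 170.1 CPM (median 143) in the PFC libraries and 367.4 to 659 CPM (median 595) in the Amy libraries, a log2 fold change of -1.96 ± 0.07 (SE, FDR = 3.63e-19). The second such enzyme, Gad1, differed less, by -0.93 ± 0.05 (SE, FDR = 6.92e-15), and all 3 genes were higher in each Amy library than in any PFC library. The median of the list between DMS and NAc was -0.48, and the median difference of the 2 differences was 0.02, so the list median cannot be told apart from a difference between the tables. By that measure 7 genes were higher in the PFC and 9 in the Amy, with -1.83 for Slc32a1, -0.96 for Gad2 and -0.71 for Gad1.

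Among interneuron genes, Pvalb, the calcium-binding protein parvalbumin of fast-spiking cells, was at 31.2 to 39.4 CPM (median 36.4) in the PFC libraries and 2.98 to 21.5 CPM (median 8.14) in the Amy libraries, a log2 fold change of 1.76 ± 0.22 (SE, FDR = 2.12e-07). Vip, the vasoactive intestinal peptide, was at 24.2 to 28.8 CPM (median 26.4) in the PFC libraries and 4.26 to 9.31 CPM (median 6.45) in the Amy libraries, a log2 fold change of 1.95 ± 0.09 (SE, FDR = 2.87e-17). Sst, somatostatin, went the other way, at 129 to 176 CPM (median 149) in the PFC libraries and 216 to 489 CPM (median 302.2) in the Amy libraries, a log2 fold change of -1.01 ± 0.08 (SE, FDR = 5.49e-11). Cck, cholecystokinin, a peptide of both interneurons and projection neurons, was higher in the PFC by 1.35 ± 0.09 (SE, FDR = 8.85e-13). None of the 4 genes overlapped between the regions.

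Of 26 listed neuropeptide precursors, 24 passed the filter on low counts. Of these, 18 were higher in the Amy and 4 in the PFC, against 20.8% and 17.2% of all genes tested. The median log2 fold change was -1.45. A gene near 0 in the PFC could pass the filter only through the Amy, so these counts are a description. With DESeq2, 26 were tested, 17 were higher in the Amy and 4 in the PFC, and the median was -1.33. In addition to those above, Cartpt, the precursor of the CART peptide, was at 2.29 to 3.98 CPM (median 2.84) in the PFC libraries and 8.34 to 56.6 CPM (median 22.3) in the Amy libraries, a log2 fold change of -3.05 ± 0.24 (SE, FDR = 4.62e-11). Pdyn, the precursor of dynorphins, had medians of 17.8 CPM in the PFC and 91.2 in the Amy. Scg2, a secretogranin of dense-core vesicles, had medians of 224 CPM in the PFC and 663 in the Amy and a log2 fold change of -1.55 ± 0.07 (SE, FDR = 2.24e-17). For these 3 genes every Amy library was above every PFC library.

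The median log2 difference between DMS and NAc over the neuropeptide list was -0.85, NAc being higher (-1.63 without FTL_285), and it was -5.63 for Cartpt and -3.81 for Crh. For these 2 genes the difference between DMS and NAc was thus larger than that between PFC and Amy. The cAMP response element TGACGTCA, which reads the same on both strands and is bound by CREB, was found within 250 bases before the start of Sst, Scg2 and Cartpt, and also of the immediate early genes Dusp1 and Btg2. It was in 3 of 22 promoters of listed neuropeptide genes (13.6%), in 2 of 15 of listed immediate early genes (13.3%) and in 2.41% of the promoters of all genes tested. At a log2 fold change of at least 1, it was in 1.46% of promoters of genes higher in the PFC and 1.2% of those higher in the Amy. None of these shares was tested. The windows around the element are shown because the first 3 genes were higher in the Amy and the others higher in the PFC.
Sst: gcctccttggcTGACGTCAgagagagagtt
Scg2: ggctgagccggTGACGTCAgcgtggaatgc
Cartpt: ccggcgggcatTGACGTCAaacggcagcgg
Dusp1: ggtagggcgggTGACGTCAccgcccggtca
Btg2: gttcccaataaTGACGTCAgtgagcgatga
These windows are from RefSeq on GRCm38.p6, at chr16:23890874-23890903, - strand for Sst, chr1:79440076-79440105, - strand for Scg2, chr13:99900777-99900806, - strand for Cartpt, chr17:26508597-26508626, - strand for Dusp1 and chr1:134079303-134079332, - strand for Btg2. Capitals mark the element, whose first base lies at -48, -68, -112, -143 and -166 from the start. The bases after the RefSeq start of Btg2 were not found in its annotated transcripts, so its distance is less certain. The same 8 letters thus stood before genes that differed between the regions in opposite directions.

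Of the immediate early genes, which neurons induce quickly on activity, 9 of 15 were higher in the PFC and none was called higher in the Amy, with a median log2 fold change of 0.73. Arc, which acts at synapses, was at 37.9 to 169 CPM (median 65.04) in the PFC libraries and 20.7 to 33.4 CPM (median 26.97) in the Amy libraries, a log2 fold change of 1.46 ± 0.19 (SE, FDR = 2.94e-07). Egr1, a zinc finger factor, averaged 158 ± 71.5 CPM (SD, n = 12) in the PFC libraries and 57.3 ± 11.6 CPM (SD, n = 12) in the Amy libraries, a log2 fold change of 1.37 ± 0.16 (SE, FDR = 3.60e-08). Dusp1, a phosphatase that acts on MAP kinases, was at 15.95 to 37.1 CPM (median 21.9) in the PFC libraries and 9.67 to 12.8 CPM (median 10.5) in the Amy libraries, a log2 fold change of 1.19 ± 0.10 (SE, FDR = 7.52e-11). The highest PFC library was over 2-fold above the PFC median for Arc and Egr1, and the regions did not overlap for these 3 genes.

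Fos, a subunit of the AP-1 factor, overlapped widely, at 3.82 to 28.7 CPM (median 9.30) in the PFC libraries and 3.32 to 14.01 CPM (median 6.23) in the Amy libraries (log2 fold change 0.90 ± 0.21 SE, FDR = 4.87e-04). Egr3 and Btg2 were higher in the PFC by 1.25 ± 0.11 (SE, FDR = 2.86e-10) and 0.58 ± 0.13 (SE, FDR = 2.89e-04). Egr3 was higher in DMS than in NAc by 1.18, so that the difference of the 2 differences was 0.07 and not called. Junb, the partner of Fos, had medians of 42.96 CPM in the PFC and 46.2 in the Amy and was not called (log2 fold change -0.05 ± 0.13 SE, FDR = 0.752). The median of the list was 1.14 in females and 0.56 in males.

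Genes of the endocannabinoid system, the target of THC, were of interest for the study as a whole. Of 14 listed genes 11 were tested, and 4 were higher in the PFC and 1 in the Amy. Cnr1, the cannabinoid receptor CB1, was at 180.4 to 223 CPM (median 197) in the PFC libraries and 111 to 205 CPM (median 169.9) in the Amy libraries, and its log2 fold change of 0.28 ± 0.07 (SE, FDR = 0.00107) was under the threshold of 0.4. The 4 genes higher in the PFC encode enzymes. Mgll, which breaks down 2-arachidonoylglycerol, averaged 283.3 ± 16.3 CPM (SD, n = 12) in the PFC libraries and 109 ± 12.8 CPM (SD, n = 12) in the Amy libraries, a log2 fold change of 1.37 ± 0.05 (SE, FDR = 5.92e-20).

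Dagla, which makes 2-arachidonoylglycerol, was at 121 to 145 CPM (median 134) in the PFC libraries and 46.6 to 82.4 CPM (median 66.5) in the Amy libraries, a log2 fold change of 1.02 ± 0.06 (SE, FDR = 3.55e-14). Its relative Daglb differed by 0.75 ± 0.04 (SE, FDR = 2.07e-16), and Faah, which breaks down anandamide, was at 89.2 to 108 CPM (median 99.01) in the PFC libraries and 54.3 to 71.96 CPM (median 64.1) in the Amy libraries, a log2 fold change of 0.63 ± 0.04 (SE, FDR = 9.05e-14). No Amy library reached the lowest PFC library for any of the 4 enzymes. Abhd4, an enzyme of a route to anandamide, was the gene higher in the Amy (log2 fold change -0.41 ± 0.06 SE, FDR = 1.40e-06), with overlap, and leaving out any of 5 libraries brought it under the threshold of 0.4 (-0.38 to -0.40). Cnr2, Trpv1 and Gpr55 did not pass the filter on low counts.

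Receptors for serotonin and dopamine were divided. Of 15 tested, 5 were higher in the PFC and 9 higher in the Amy, with a median log2 fold change of -0.73. Htr2a, a serotonin receptor of cortical projection neurons, was at 56.6 to 74.3 CPM (median 64.6) in the PFC libraries and 8.96 to 17.99 CPM (median 12.1) in the Amy libraries, a log2 fold change of 2.38 ± 0.09 (SE, FDR = 4.84e-18). Its relative Htr2c was at 20.5 to 30.1 CPM (median 25.9) in the PFC libraries and 104 to 159 CPM (median 139) in the Amy libraries, a log2 fold change of -2.39 ± 0.06 (SE, FDR = 5.79e-22). The log2 fold changes of these related receptors were of nearly equal size and opposite sign, and the regions did not overlap for either.

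Htr1a, an inhibitory serotonin receptor, was higher in the PFC by 0.93 ± 0.06 (SE, FDR = 4.72e-14), and the dopamine receptor gene Drd5 by 1.51 ± 0.11 (SE, FDR = 6.55e-13). Htr1d, another inhibitory serotonin receptor, was higher in the Amy (log2 fold change -3.46 ± 0.20 SE, FDR = 1.15e-14), with medians of 0.416 CPM in the PFC and 5.34 in the Amy.

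Subunits of the GABA-A receptor, the ligand-gated chloride channel, were split by type, 7 of 14 being higher in the PFC and 4 higher in the Amy. Gabre, the epsilon subunit, was at 0.0422 to 0.243 CPM (median 0.163) in the PFC libraries and 8.65 to 16.8 CPM (median 12.1) in the Amy libraries, a log2 fold change of -6.33 ± 0.16 (SE, FDR = 4.79e-22). Gabrq, the theta subunit, was at 0.858 to 2.09 CPM (median 1.13) in the PFC libraries and 16.1 to 30.9 CPM (median 28.3) in the Amy libraries, a log2 fold change of -4.39 ± 0.12 (SE, FDR = 4.42e-21). Neither gene exceeded 2.09 CPM in any PFC library.

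The gamma1 subunit gene Gabrg1 was at 19.1 to 24.96 CPM (median 21) in the PFC libraries and 80.7 to 103 CPM (median 92.2) in the Amy libraries, a log2 fold change of -2.12 ± 0.05 (SE, FDR = 7.93e-23), and the alpha2 subunit gene Gabra2 differed by -0.94 ± 0.05 (SE, FDR = 2.08e-16). Gabrd, the delta subunit of extrasynaptic receptors, was higher in the PFC by 1.85 ± 0.12 (SE, FDR = 2.40e-13), and Gabrb2, the beta2 subunit, by 0.89 ± 0.16 (SE, FDR = 2.61e-05). The lowest Amy value of Gabrb2, 22.4 CPM, was that of FTL_338. With library size alone, 4 subunits were higher in the PFC and 4 in the Amy.

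Of 17 subunits of ionotropic glutamate receptors tested, 6 were higher in the PFC, 4 higher in the Amy and 7 not called. Against 17.2% and 20.8% of all genes tested, the count on the Amy side was near that of all genes. Grin2a, an NMDA receptor subunit of mature synapses, was at 262.8 to 334.1 CPM (median 297.8) in the PFC libraries and 46.8 to 152 CPM (median 113) in the Amy libraries, a log2 fold change of 1.42 ± 0.12 (SE, FDR = 4.72e-11). Gria3, an AMPA receptor subunit, was higher in the PFC by 0.87 ± 0.05 (SE, FDR = 8.02e-14). The NMDA receptor subunit genes Grin2d and Grin3a were higher in the Amy (log2 fold changes of -1.12 ± 0.07 SE, FDR = 1.28e-14 and -0.99 ± 0.06 SE, FDR = 9.08e-14), and these 4 genes did not overlap. Minus the difference between DMS and NAc, Gria3 was at 0.29 and not called. Grin2d and Grin3a turned in sign, to 0.41 (not called) and 1.21 (called). With library size alone, 3 subunits were higher in the PFC and 6 in the Amy.

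Of 17 classical cadherins tested, which join cells that express the same type, 6 were higher in the PFC, 3 higher in the Amy and 8 not called. Of all genes tested, 17.2% were higher in the PFC and 20.8% in the Amy, so the count on the Amy side was near that of all genes. Cdh12 was at 14.3 to 18.7 CPM (median 17.7) in the PFC libraries and 1.57 to 5.97 CPM (median 3.28) in the Amy libraries, a log2 fold change of 2.39 ± 0.12 (SE, FDR = 4.06e-16). Cdh4 was at 22.8 to 28.2 CPM (median 25.8) in the PFC libraries and 54.4 to 93.95 CPM (median 71.6) in the Amy libraries, a log2 fold change of -1.46 ± 0.07 (SE, FDR = 1.43e-16). Cdh11 was higher in the PFC by 1.48 ± 0.06 (SE, FDR = 1.61e-18) and Cdh15 higher in the Amy (log2 fold change -1.94 ± 0.15 SE, FDR = 3.38e-12), each without overlap. With library size alone the counts were 5 and 5, and 5 were higher in the Amy without FTL_264, FTL_338 and FTL_346. Minus the difference between DMS and NAc, 10 of 18 tested were higher in the PFC and 4 in the Amy, and Cdh4, at -0.32, was not called.

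Of 15 genes of steroid and stress hormone signaling, 9 were higher in the Amy and 3 in the PFC, with a median log2 fold change of -0.74. Crhr2, the receptor of urocortins, was at 0.520 to 1.12 CPM (median 0.923) in the PFC libraries and 2.93 to 7.80 CPM (median 6.15) in the Amy libraries, a log2 fold change of -2.70 ± 0.15 (SE, FDR = 2.40e-15). Nr3c1, the glucocorticoid receptor, was at 132 to 165 CPM (median 146) in the PFC libraries and 79.5 to 114 CPM (median 105) in the Amy libraries, a log2 fold change of 0.52 ± 0.05 (SE, FDR = 7.50e-11). Fkbp5, a chaperone that glucocorticoids induce, was higher in the Amy, with medians of 22.3 CPM in the PFC and 37.03 in the Amy and a log2 fold change of -0.74 ± 0.05 (SE, FDR = 8.99e-13). Oxtr, the oxytocin receptor, was higher in the Amy (log2 fold change -1.41 ± 0.08 SE, FDR = 1.43e-14), and the regions did not overlap for these 4 genes. Nr3c1 was under the threshold of 0.4 with library size alone (0.36). Minus the difference between DMS and NAc it was at 0.34, also under the threshold, and the list median turned to 0.12, with 4 genes higher in the PFC and 5 in the Amy.

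Genes of non-neuronal cells were mostly either higher in the Amy or not called. Of 15 genes of oligodendrocytes and myelin, 14 were higher in the Amy, against 20.8% of all genes tested, with a median log2 fold change of -0.65. The regions overlapped for all 15, whereas every Amy library was above every PFC library for 11.5% of all genes tested. Mbp, myelin basic protein, was at 742 to 1900 CPM (median 1284) in the PFC libraries and 972 to 3000 CPM (median 1876) in the Amy libraries, a log2 fold change of -0.65 ± 0.16 (SE, FDR = 0.00119). Cnp, a myelin enzyme, averaged 206 ± 39.6 CPM (SD, n = 12) in the PFC libraries and 355.9 ± 96.6 CPM (SD, n = 12) in the Amy libraries, a log2 fold change of -0.79 ± 0.14 (SE, FDR = 1.38e-05). Over the same list the median was 0.61 between DMS and NAc, the sign being opposite.

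Of 14 astrocyte genes, 8 were higher in the Amy and 1 in the PFC, with a median log2 fold change of -0.48. Between DMS and NAc the median was -0.46, and the median difference of the 2 differences was 0.07, with 4 genes higher in the PFC and 3 in the Amy, so the list median cannot be told apart from a difference between the tables. Agt, the precursor of angiotensin, was at 1.80 to 3.11 CPM (median 2.72) in the PFC libraries and 48.6 to 104 CPM (median 80.4) in the Amy libraries, a log2 fold change of -4.91 ± 0.14 (SE, FDR = 5.20e-20). Gfap, the filament protein of astrocytes, was at 21.9 to 52.1 CPM (median 37.6) in the PFC libraries and 76.1 to 242 CPM (median 141) in the Amy libraries, a log2 fold change of -2.04 ± 0.18 (SE, FDR = 6.77e-10). Slc1a2, the main glutamate transporter of astrocytes, was the member higher in the PFC, by 0.50 ± 0.08 (SE, FDR = 4.99e-06). This call was lost with library size alone (0.35), where 11 members were higher in the Amy and 0 in the PFC, and in males alone (0.35). Minus the difference between DMS and NAc, the values were -1.94 for Agt, -1.19 for Gfap and 0.58 for Slc1a2, all called.

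Of 12 microglial genes 1 was called, C1qb, a complement component, with a log2 fold change of -0.42 ± 0.06 (SE, FDR = 1.03e-06), overlap between the regions and a value of -0.39, under the threshold, without FTL_338. Of 12 endothelial genes and 4 hemoglobin genes, 0 were called by edgeR and 0 by DESeq2, and 7 and 0 of them, respectively, had an unadjusted p under 0.05 in edgeR. Minus the difference between DMS and NAc, 8 microglial and 9 endothelial genes were called higher in the Amy. Of 10 genes of leptomeninges and fibroblasts, 9 were higher in the Amy and 1 in the PFC, with a median of -0.62. The number higher in the Amy was 7 without FTL_264, FTL_338 and FTL_346, 4 in 1 fit of all 5 regions and 3 for the difference of the 2 differences. Of the 11 genes of choroid plexus and ependyma 6 were tested, and 5 of these were higher in the Amy, again a count over genes that could pass the filter through the Amy alone. Kl, which encodes klotho, was at 1.02 to 2.41 CPM (median 1.38) in the PFC libraries and 8.11 to 36.5 CPM (median 10.5) in the Amy libraries, and Clic6, an ion channel of secretory epithelium, at 0.210 to 0.615 CPM (median 0.312) in the PFC libraries and 8.21 to 30.1 CPM (median 10.8) in the Amy libraries.

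Summed levels of the choroid plexus and ependyma list were 177 to 235 CPM in the PFC and 132 to 1580 CPM in the Amy. The 3 highest Amy values of Kl were in FTL_335, FTL_337 and FTL_338. Enpp2, an abundant gene of this epithelium that other cells also express, was not called, at 173 to 230.2 CPM (median 189.9) in the PFC libraries and 109 to 558 CPM (median 155) in the Amy libraries. How far tissue of the ventricle took part in other differences was not tested.

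Of 13 mitochondrially encoded genes, 12 were higher in the PFC, with a median log2 fold change of 0.58. The share of expected counts from these genes was 4.93 to 5.58% in the PFC and 3.24 to 4.58% in the Amy. mt-Co1, a subunit of cytochrome c oxidase, was at 15460 to 17170 CPM (median 16250) in the PFC libraries and 8668 to 11760 CPM (median 10210) in the Amy libraries, a log2 fold change of 0.65 ± 0.04 (SE, FDR = 1.66e-14). With library size alone, 7 of the 13 were called. The gene not called was mt-Co2, another subunit (0.14 ± 0.07 SE, FDR = 0.0612). Between DMS and NAc, in the same pair of tables, the median was 0.76, and the difference of the 2 differences was -0.11, so for this list the difference between PFC and Amy cannot be told apart from one between the tables.

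The same comparison was made for the whole set of genes. DMS and NAc differed in 2569 genes higher in DMS (14.0%) and 3055 higher in NAc (16.7%) of 18331 tested. Of the 2919 genes higher in the PFC that were measured there too, 817 (28%) were also higher in DMS and 415 (14.2%) were lower in DMS. Of the 3544 genes higher in the Amy, 1264 (35.7%) were also higher in NAc and 421 (11.9%) were lower. DMS and NAc are themselves different regions, so these shares hold regional differences together with any of the table.

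All PFC and DMS libraries lay above all NAc, Amy and VTA libraries for 169 genes (0.922%) and below them for 159 (0.867%). Of the first, 150 (88.8%) were called higher in the PFC than in the Amy, and of the second, 155 (97.5%) were called higher in the Amy. These genes were picked because all PFC libraries lay beyond all Amy libraries in the same direction, so these shares follow largely from the choice. Rasl10a, a small GTPase, had a median of 32.8 CPM for PFC and 10.5 CPM for DMS, against 4.43 for NAc, 3.41 for Amy and 1.51 for VTA. Dlk1, an imprinted gene that encodes a Notch-like ligand, had medians of 0.666, 6.43, 147, 61.6 and 433 CPM in the same order.

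Both genes were picked from those that follow the tables without exception among the vehicle libraries, so this pattern is not a separate result. Of the other genes named by this rule, Rbp4, Mlip, Rassf3 and Gask1b were higher in the PFC by 2.01 to 2.73 on the log2 scale. Pgr15l, Arhgap36, Rtl1 and Chrm5 were higher in the Amy, and their differences between DMS and NAc were -3.08, -3.60, -2.56 and -2.93. For Gask1b the difference between DMS and NAc, 3.20, was larger than that between PFC and Amy, 2.01. Over all 12 DMS libraries, Tbr1 and Slc17a7 differed by -0.83 and -0.20 between DMS and NAc, opposite in sign to their differences between PFC and Amy. These values rested on DMS library FTL_285, at 22 CPM for Tbr1 and 211.5 CPM for Slc17a7, against 0.141 to 0.637 and 1.69 to 3.59 CPM in the other 11 DMS libraries. Without it they were -3.47 and -2.79, both called. Slc17a7 was uneven in NAc too, at 23.2 to 86.42 CPM in FTL_309, FTL_310, FTL_311, FTL_324 and FTL_325. In the other NAc libraries it was at 0.79 to 2.78 CPM, near the DMS values. How far those higher NAc libraries set the -2.79 of Slc17a7 was not tested.

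The difference between PFC and Amy minus that between DMS and NAc kept its sign and call for 105 of 135 named genes, lost the call for 12 and turned for 13. It was 2.58 for Cartpt, 2.48 for Crh, 1.21 for Grin3a, 0.76 for Tshz2, 0.46 for Oxtr, 0.41 for Grin2d, 0.36 for Tac2 and 0.12 for Esr1, all of which were higher in the Amy than in the PFC. By these estimates NAc exceeded DMS by more than Amy exceeded PFC. The difference of the differences was called for Cartpt, Crh, Grin3a and Tshz2 and was not called for Oxtr, Grin2d, Tac2 and Esr1. It was -1.77 for Cnr1, which is higher in DMS than in NAc by 2.06. The 12 that lost the call were Oxt (-2.73), Slc17a7 (2.06), Lhx9 (-0.88), Cck (0.52), Abhd4 (-0.35), Nr3c1 (0.34), Cdh4 (-0.32), Gria3 (0.29), mt-Co1 (0.09), Rassf3 (0.07), Egr3 (0.07) and Inhba (0.04). Without FTL_285, Slc17a7 (4.65), Cck (0.93), Oxtr (0.59) and Grin2d (0.52) were called, whereas Sim1 (-6.32) and Cyp19a1 (-2.04) were not. The value of Slc17a7 includes the uneven NAc levels given above.

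**Figure D4:**
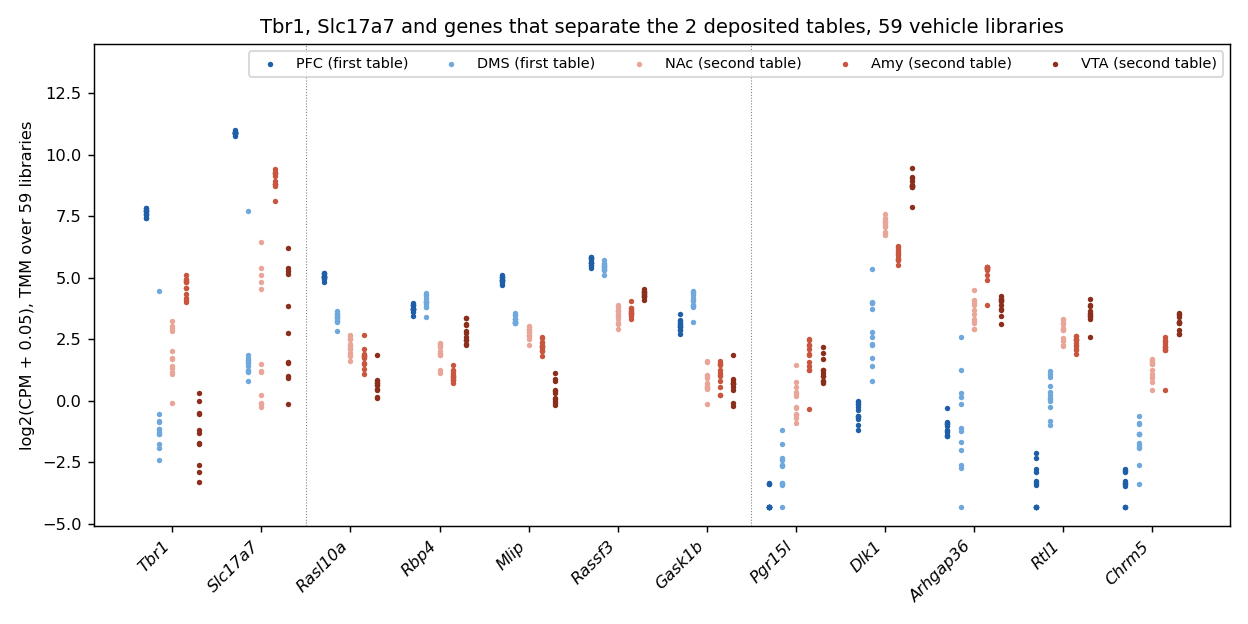
Levels of named genes in the vehicle libraries of the 5 regions, as log2 CPM with 0.05 CPM added, with 1 point for each library and the regions of the first table (PFC, DMS, blue) to the left of those of the second (NAc, Amy, VTA, red). Tbr1 and Slc17a7 are high in the PFC and intermediate in the Amy, and 1 DMS library lies above the other DMS libraries for both. Dlk1 and Rasl10a follow the tables, which is how they were chosen.

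The region differences were found in both sexes. In females 2759 genes (16.9%) were higher in the PFC and 3323 (20.3%) higher in the Amy, and in males 2560 (15.8%) and 2966 (18.3%). Of 16069 genes tested in both sexes, 5986 were called in females, 5462 in males and 4625 in both in the same direction, which is 77.3% of the first and 84.7% of the second. None was called in opposite directions. Calls in 1 sex only do not show that the sexes differ.

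The test of that difference, a region by sex interaction, called 0 of 17011 genes (0%) in edgeR, with 1390 genes at an unadjusted p under 0.05. DESeq2 called 1 gene, Osbpl3, which encodes an oxysterol-binding protein. In edgeR, the interaction of Osbpl3 was -0.67 on the log2 scale (males minus females, FDR = 0.275), its region difference being 2.31 in females and 1.66 in males. The next gene was Bcl6, a transcriptional repressor, with an interaction of -0.41 (FDR = 0.277). Ccdc113, Ecel1 and Slc31a1 followed, each at an FDR of 0.599.

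**Figure D5:**
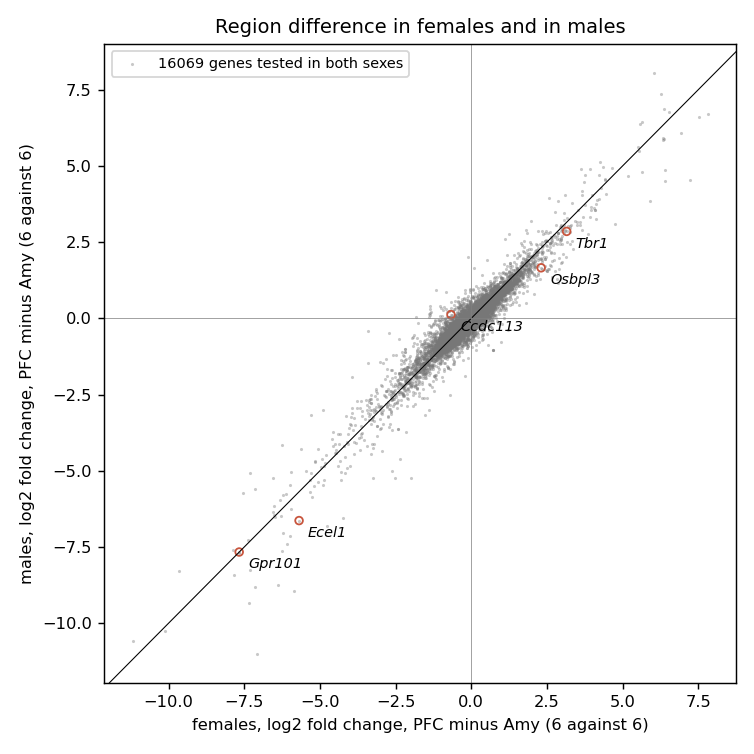
Log2 fold change (PFC over Amy) of each gene tested in both sexes, in females (horizontal axis) and in males (vertical axis), with 1 point for each gene, the line of equal values, and named genes circled. Of 16069 genes, 4625 were called in both sexes in the same direction and 0 in opposite directions.

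The Amy libraries varied more among themselves than the PFC libraries. The biological coefficient of variation was 6.6% in the PFC and 14.3% in the Amy, and 6.25% and 9.98%, respectively, without the 3 libraries that stood apart. Leaving out FTL_338 alone brought the Amy to 10.7%. The SD of log2 CPM within sexes was larger in the Amy for 13284 genes (78.1%), with medians of 0.12 in the PFC and 0.19 in the Amy. The median correlation of a library with the others of its region, across genes and thus not over independent replicates, was 0.987 to 0.99 in the PFC and 0.973 to 0.988 in the Amy. Between the regions it was 0.947.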

How the data were processed

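Polyadenylated RNA from brain punches was sequenced as stranded paired-end libraries. The authors trimmed reads with cutadapt 2.9, aligned them to mm10 with STAR 2.7.3a and quantified genes with RSEM 1.3.1, as the submitters' processing notes and the methods list, and the annotation release is not given in the sources used here. The deposited values are expected counts per gene, without normalization, which RSEM divides among genes that share reads. They came in 2 tables of 55291 genes, and 0 columns of per-library values went unused. Libraries were grouped by the labels' region, sex and treatment. The p-values measure the spread between these libraries, and comparisons between regions of the same mice were unpaired.

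Expected counts were rounded to whole numbers. The 24 libraries were fitted in edgeR 4.0.16 (R 4.3.3) with its filter on low counts by region and sex, TMM, robust dispersions and quasi-likelihood F tests of region, sex being a covariate. Adjustment was by Benjamini and Hochberg over all 17011 genes tested, and calls needed an FDR under 0.05 and a log2 fold change of 0.4 or more in size, the study's thresholds. CPM are TMM-normalized, and log2 CPM of a library used a prior count of 2. DMS minus NAc and the difference of differences came from 1 fit of all 59 vehicle libraries. Total depth, 9663291 to 56648771 expected counts in the Amy, limits the precision of low genes. Intervals and floors cover counting error only.

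The members and the gene lists were chosen with earlier results of these data known. Named genes were Tbr1 and Slc17a7, the 10 of largest fold change in each direction among called genes without overlap and with at least 5 CPM in the higher region, up to 4 called members of each list in each direction, the genes of largest spread, the 5 of smallest interaction p and 5 in each direction that separate the tables. Of these, 2 genes are not reported here. Bcl11b, Bhlhe22, Btg2, Cartpt, Cnr1, Crh, Enpp2, Fkbp5, Fos, Gad1, Junb, Mbp, mt-Co2, Neurod2, Otp, Oxt, Oxtr, Pdyn, Ppp1r1b, Scg2 and Sst stand outside this rule and were chosen after their values were seen. Alternatives were DESeq2 1.42.0, its size factors, no filter, no covariate, each sex alone, thinning to the shallowest library, 1 fit of 5 regions, the difference of differences and leaving out each library. Library size alone, leaving out 3 libraries together and leaving out DMS library FTL_285 were added after the data were seen. Promoters came from RefSeq (GRCm38.p6), which held 12257 of the 17011 genes.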

Additional observations from a re-analysis of the deposited data

Results flagged for a closer look

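Values of single libraries were screened with Dixon's ratio in 187 groups of 6 libraries of 1 region and sex, and 17 stood apart at a level that chance gives in about 5% of groups. Several came from the same library.

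In Amy library FTL_346, from a male, genes of the medial amygdala side were low and striatal genes were high. Its log2 CPM was -2.42 for Ucn3 (2.52 to 3.92 in the other male Amy libraries), 1.23 for Calcr (2.6 to 3.41), 1.41 for Frem3 (3.81 to 4.44) and 2.05 for Gal (3.55 to 4.11). The summed level in FTL_346 was 1930 CPM for the central amygdala list, against 1210 to 1400 CPM in the others, and 2830 CPM for the medium spiny neuron list, against 1400 to 1750 CPM.

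In PFC library FTL_264, from a female, subpallial genes were high. Its log2 CPM was -1.47 for Lhx8 and -0.635 for Six3os1, where the other female PFC libraries had no count and stood at -3.7, and 1.8 for Six3, where the others stood at -3.7 to -3.05. Its summed level was 655 CPM for the central amygdala list (up to 419 in the others), 1110 CPM for the medium spiny neuron list (583 to 633) and 231 CPM for the serotonin and dopamine receptors (194 to 205). Without FTL_264 the median log2 fold change of the central amygdala list moved from -1.76 to -2.03.

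Frem3 had 1 count in each of the PFC libraries FTL_263 and FTL_277, which gave a log2 CPM of -3.04 against -3.7 in libraries without a count. Ovol2 had a log2 CPM of -2.13 in the male Amy library FTL_350 (-1.02 to -0.472 in the others). The summed level of the hypothalamic and medial amygdala list was 95.4 CPM in the male PFC library FTL_277 (77.6 to 83.4 in the others). The summed level of GABA-A receptor subunits was 1410 CPM in the female Amy library FTL_338 (1690 to 1830 in the others).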

How the results depend on the processing

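Depth was uneven among the Amy libraries, and how far the shallow ones limited the calls was not tested. No paired analysis was possible because the mouse behind each library is not in the labels. The numbers of genes higher in the PFC and Amy were 3460 and 4368 with DESeq2, 2929 and 3526 with its size factors, 3706 and 4898 with no filter, 2909 and 3549 with no covariate, 2558 and 2977 when thinned, 3012 and 3857 in 1 fit of 5 regions, 2011 and 5087 with library size alone, and 916 and 1255 at a log2 fold change of at least 1. Leaving out each library gave 2882 to 2960 and 3462 to 3627. The interaction gave 1 call in DESeq2 and 0 to 1 when libraries were left out, the 1 call coming without FTL_336. The causes of the changes below were not tested.

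Minus the difference between DMS and NAc, list medians were 0.19 for upper layers, -1.41 for central amygdala, -2.29 for medium spiny neurons, -2.48 for hypothalamus and medial amygdala, -0.13 for thalamus, -1.71 for subpallial factors, 0.0218 for GABAergic neurons, -0.83 for neuropeptides, 0.12 for steroid and stress signaling, 0.55 for endocannabinoid genes, 0.57 for cadherins, -1.19 for oligodendrocytes, 0.068 for astrocytes, -0.50 for microglia, -0.49 for endothelium, -3.36 for choroid plexus and -0.11 for mitochondrial genes. Genes that turned in sign were Cartpt (2.58), Crh (2.48), Vgll3 (1.71), Grin3a (1.21), Tshz2 (0.76), Rpl27-ps3 (0.49), Oxtr (0.46), Grin2d (0.41), Tac2 (0.36), Esr1 (0.12), mt-Co2 (-0.71), Gask1b (-1.19) and Cnr1 (-1.77). Of these, Rpl27-ps3, Oxtr, Grin2d, Tac2 and Esr1 were not called in the new direction.

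Without DMS library FTL_285 as well, these list medians were 0.19, -1.37, -2.29, -2.43, -0.0972, -1.71, 0.0204, -0.83, 0.11, 0.58, 0.59, -1.18, 0.0786, -0.52, -0.49, -3.28 and -0.15, in the same order, and 4.09 for pallial neurons (2.06 with it). The same 13 genes turned, at 2.53, 2.48, 2.65, 1.28, 0.80, 0.36, 0.59, 0.52, 0.33, 0.11, -0.74, -1.21 and -1.77.

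In females alone, list medians were -1.29 for central amygdala and for medium spiny neurons, -1.03 for thalamus, -2.20 for subpallial factors, -0.50 for serotonin and dopamine receptors, -3.77 for choroid plexus, -1.25 for leptomeninges, 1.14 for immediate early genes and -1.36 for hemoglobin. In males alone they were -2.25 for central amygdala, -3.19 for hypothalamus and medial amygdala, -2.73 for choroid plexus, -0.30 for leptomeninges and 0.21 for hemoglobin. Thinned, they were -4.745 for hypothalamus and medial amygdala, -1.01 for thalamus, -2.26 for subpallial factors (-2.33 with DESeq2), -3.13 for choroid plexus and -1.37 for leptomeninges. The central amygdala median was -2.03 to -1.59 when libraries were left out. Each median is over the list members that the fit tested, which can be fewer than in the main fit. With DESeq2, 16 of the 17 subpallial factors were tested. Shifts in these medians can thus come from the members covered as well as from their values.

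Genes not called between the regions turned sign in several fits. In females they were Bhlhe22 (-0.10), Bcl11b (0.10), Junb (0.0928) and Slc31a1 (-0.21), and in males Enpp2 (0.43), Ccdc113 (0.12), Vgll3 (0.40) and Rpl27-ps3 (0.35). With library size alone they were mt-Co2 (-0.0132) and Slc31a1 (-0.12), thinned Slc31a1 (-0.0242), and without the 3 libraries that stood apart Enpp2 (0.000101) and Junb (0.0199). Leaving out each library gave -0.10 to 0.00363 for Bcl11b, -0.13 to 0.0945 for Enpp2, -0.12 to 0.00856 for Junb and -0.52 to 0.10 for Rpl27-ps3. Not every fit tested all 135 named genes, and a gene that a fit did not test is not counted as held. Sign and call held in 135 with size factors, with no covariate, with no filter and in 1 fit of 5 regions. They held in 134 with DESeq2, which is all that it tested, and in 132 thinned and without the 3 libraries. The count was 130 with library size alone, 127 in females, 121 in males and 105 minus the difference between DMS and NAc. Calls lost, other than in the last, were Mbp (-0.57) and Ppp1r1b (-0.30) in females, Bcl6 (0.37), C1qb (-0.33) and Slc1a2 (0.35) in males, Nr3c1 (0.36) and Slc1a2 (0.35) with library size alone, and C1qb thinned (-0.35) and without the 3 libraries (-0.38).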

Other observations

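The differences were not even over gene length. Genes were put in 5 bins of equal number by annotated exon length. In the bin of shortest genes, 26.6% were higher in the Amy and 14% in the PFC, and in the bin of longest genes, 15.7% and 21.1%, with median log2 fold changes of -0.13 and 0.06. Between DMS and NAc the medians of the same bins were 0.12 and -0.08, of opposite sign. In Amy library FTL_338 the median gene of the shortest bin deviated from the other Amy libraries by 0.48 on the log2 scale and that of the longest by -0.39. In the other Amy libraries these values were -0.22 to 0.09 and -0.07 to 0.15. The part of length in single results was not tested.

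Among genes of largest spread within a region, several were short or had near-identical copies between which RSEM may divide reads, such as Rn7s1 (0 to 365.4 CPM in the Amy and 0 to 76.1 CPM in the PFC) and Rpl27-ps3 (0 to 34.4 CPM and 0 to 14.7 CPM). Vgll3, a transcriptional cofactor, varied from 1.32 to 19.3 CPM in the Amy and from 4.42 to 6.31 CPM in the PFC.

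Of 5 sex-linked genes, 0 were called between the regions in edgeR, and 1 had an unadjusted p under 0.05. The summed level of Y-linked genes was 73.3 CPM in PFC library FTL_275 and 66.7 CPM in Amy library FTL_346, against 129.2 to 152.7 CPM in the other male libraries. Xist was at 231.3 CPM in Amy library FTL_338, against 477.7 to 537.1 CPM in the other female libraries.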
